A study of Mus musculus with 40 samples.

Results

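The genes described here are 10 markers of the GABAergic interneuron lineage, taken by symbol through their NCBI gene IDs: Dlx1, Dlx2, Dlx5, Dlx6, Lhx6, Lhx8, Nkx2-1, Gad1, Gad2 and Slc32a1. All 10 were found among the 17940 genes listed at embryonic stage E14.5 and among the 15449 listed at E18.5, and all 10 were tested at both stages. The study sequenced polyadenylated RNA of the forebrain of male mouse embryos, with 5 wild-type (WT) and 5 Chd8 KI libraries at each stage. KI is the labels' name for mice with an added copy of Chd8, which encodes an ATP-dependent chromatin remodeler often mutated in autism. The labels give neither the strain nor the build of the added copy, and do not say whether replicate libraries are from different litters. P-values therefore measure the spread between these libraries, which may be technical.

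GABAergic interneurons are the inhibitory cells of the cortex, and they are born outside it, in the ganglionic eminences of the ventral telencephalon, from where they migrate dorsally. DLX homeobox factors act across these eminences, NKX2-1 marks the medial eminence, and LHX6 and LHX8 act after NKX2-1 in cortical interneurons and in cholinergic and other ventral neurons. GAD1 and GAD2 make GABA from glutamate, and the transporter encoded by Slc32a1 loads it into vesicles. Projection neurons of the striatum are also GABAergic and pass through the same DLX and GAD programme, so none of the 10 genes is restricted to interneurons.

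The values come from the authors' test of KI against WT at each stage. It lists per gene the mean of the normalized counts, the log2 fold change with its standard error (SE) and p-values, with no value per library. Values above 0 are taken to mean higher in KI, because those of Chd8 are above 0 at both stages and an added copy would raise it. In the authors' deposited table the log2 fold change of Chd8 was 0.64 at E14.5 (SE 0.0313) and 0.51 at E18.5 (SE 0.0378). A gene is called changed when its adjusted p over all genes is under 0.05. Group means for WT and KI are derived here from the deposited mean and log2 fold change with both groups weighted equally, and 95% intervals from the SE. As markers for the forebrain label, Lhx2 and Bcl11a had mean normalized counts of 6087 and 8569 at E14.5 per the authors' deposited table. At E18.5 they were at 2768 and 8583 there. These counts do not show the limits of the dissection. Of 8 midbrain and hindbrain markers only En2 was listed at E14.5, at a mean normalized count of 1.261 per the authors' deposited table, and none was listed at E18.5.

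All 10 genes had log2 fold changes above 0 in KI at both stages. The median over the 10 was 0.11 at E14.5 and 0.13 at E18.5, beside medians of −0.00 over all 13417 and 13601 genes tested. The share of the whole table above 0 was 49.8% (E14.5) and 48.8% (E18.5). Over all genes tested at both stages, 27.9% lay above 0 at both. Most of the differences were small, between 0.159% and 12.2% of the WT level apart from Lhx8 and Nkx2-1, and 1 of the 20 was called: Dlx1 rose at E14.5. Higher calls made up 0.738% of the whole table at E14.5 and, at E18.5, 0.0441%. At an unadjusted p under 0.05, 5 members lay higher at E14.5 (6.26% of all genes) and 4 at E18.5 (3.13% of all genes). The 10 genes were measured in the same libraries, so their directions are not independent of each other. In bulk tissue, a larger share of GABAergic cells and more RNA per such cell cannot be told apart. The derived means of the excitatory cortical lineage markers were lower in KI in sum at E14.5, 50626 in WT and 47404 in KI over 14 genes. At E18.5 the sums were 40349 and 39452 over 13 genes. Other lists described below went either way in sum at E14.5 (WT first). Striatal projection neuron genes (26987 and 26299) and interneuron subtype markers (12168 and 11758) were lower in KI. So were genes of interneuron specification and migration (23142.5 and 22919.1). Ventral patterning and progenitor genes (8672 and 9503), GABA uptake and breakdown genes (10074 and 10245) and the cholinergic list (75.6 and 86.6) were higher. The part of any of these cells in the values of the 10 genes was not tested.

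**Figure D1:**
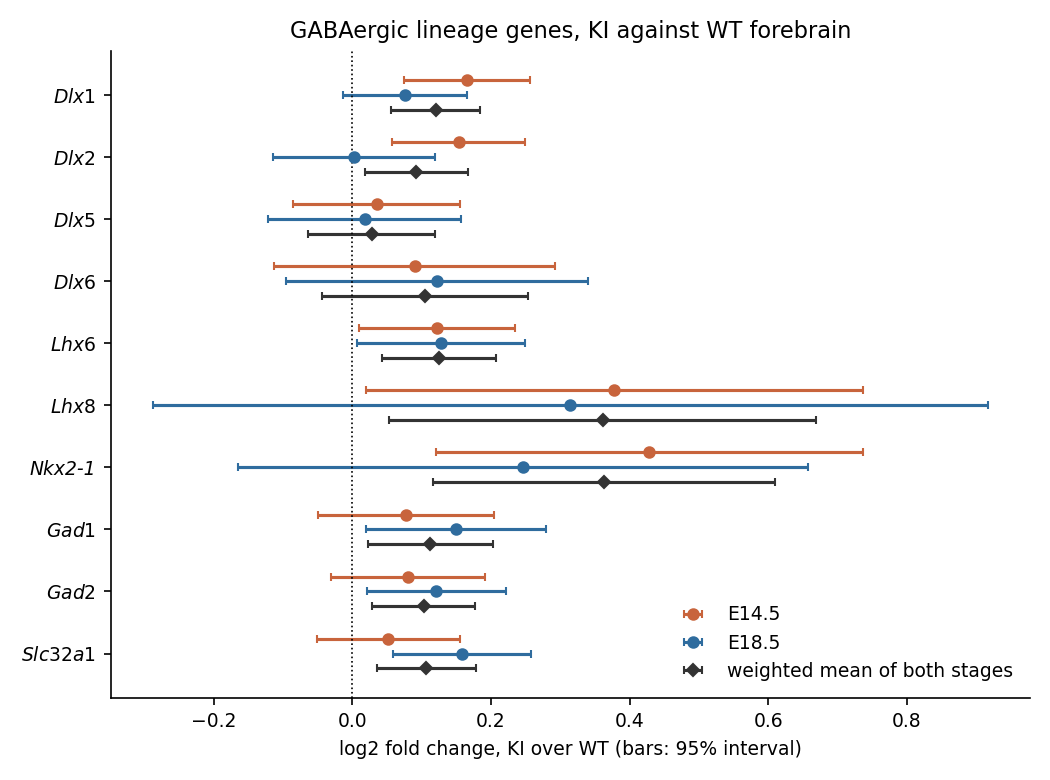
Log2 fold change of KI over WT for each of the 10 genes (rows) at E14.5, at E18.5 and as the weighted mean of both stages; bars are 95% intervals. All points lie above 0, the E14.5 intervals of Dlx1, Dlx2, Lhx6, Lhx8 and Nkx2-1 and the E18.5 intervals of Lhx6, Gad1, Gad2 and Slc32a1 exclude 0, and those of Lhx8 and Nkx2-1 are the widest at both stages.

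The Dlx genes are arranged in convergent pairs. In GRCm38.p6 Dlx1 (gene ID 13390) lies on chromosome 2 at 71528113 to 71533981, and Dlx2 (gene ID 13392) follows 9.43 kb further on at 71543408 to 71546754. Dlx6 (gene ID 13396) lies on chromosome 6 at 6863334 to 6867970, with Dlx5 (gene ID 13395) 9.83 kb further on at 6877801 to 6882068. Both pairs are accompanied by noncoding RNA genes: Dlx1as overlaps 3344 bases of Dlx1, and the whole of Dlx6 lies inside Dlx6os1. These are overlaps of whole gene spans, and overlap of exons was not examined. The strand setting of the counting is not given in the sources used here either. Reads of Dlx1 and Dlx1as, or of Dlx6 and Dlx6os1, may therefore not have been told apart.

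Dlx1, an early driver of GABAergic fate, was the member that rose. In the authors' deposited table its mean normalized count at E14.5 was 3065 and its log2 fold change 0.17 (SE 0.0466, DESeq2 adjusted p = 0.0369). This corresponds to about 2890 in WT and 3241 in KI, 12.2% higher (95% interval 5.28% to 19.5%). The change was close to the smallest that could be called with this SE, 0.16 on the log2 scale. The call ended under the Benjamini-Yekutieli adjustment (adjusted p = 0.372) and with an empirical null (adjusted p = 0.333). In the latter, the test statistics of all genes are centred on their median and rescaled to their own spread. At E18.5 Dlx1 was at 1849 in WT and 1949 in KI, a log2 fold change of 0.08 per the authors' deposited table (SE 0.0458, adjusted p = 0.960).

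Its neighbour Dlx2, which acts with Dlx1 in the same progenitors, had almost the same value at E14.5. Derived means were 2753 in WT and 3062 in KI, and its log2 fold change per the authors' deposited table was 0.15 (SE 0.0490, adjusted p = 0.0835). At E18.5 Dlx2 was level between the genotypes, at 1288 in WT and 1290 in KI (0.00, SE 0.0594, adjusted p = 0.9999 per the authors' deposited table), with a 95% interval from 7.61% lower to 8.58% higher. The second pair, which acts later in differentiating neurons, lay nearer 0 than the first at E14.5, while at E18.5 Dlx6 was the highest of the 4. At E14.5 and then E18.5, Dlx5 stood at 0.04 (SE 0.0616) and 0.02 (SE 0.0710), and Dlx6 at 0.09 (SE 0.103) and 0.12 (SE 0.111), per the authors' deposited table. For Dlx6, with a mean normalized count of 291 at E14.5 per the authors' deposited table, only a difference of at least 27.9% could have been called. The antisense partners leaned the same way. Dlx1as was at 0.09 (SE 0.0487) and 0.15 (SE 0.0676), and Dlx6os1 at 0.16 (SE 0.0530) and 0.07 (SE 0.0588), at E14.5 and E18.5 per the authors' deposited table, none of them called.

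RefSeq promoters on GRCm38.p6 were available for 8 of the 10 genes and for Dlx6os1. DLX and LIM homeodomain proteins bind sites with the core TAATT, so the 250 bases before each start were searched for TAATT and its complement AATTA (where TAATTA holds both, 2 matches are counted). A core was present in 1 of the 10 promoters of the members, an inner start of Lhx6, and in 25.03% of 32851 promoters of all genes. Shown are the promoters of Dlx1, the member that rose, and of Nkx2-1, with the largest log2 fold change at E14.5. Also shown is that of Slc32a1, with the lowest p at E18.5. The last is that of Dlx6os1 at an inner start between Dlx6 and Dlx5, which holds 7 cores. Each runs 5′ to 3′ on the gene's strand, with the cores in capitals.
Dlx1 (chr2:71529195-71529444, plus strand): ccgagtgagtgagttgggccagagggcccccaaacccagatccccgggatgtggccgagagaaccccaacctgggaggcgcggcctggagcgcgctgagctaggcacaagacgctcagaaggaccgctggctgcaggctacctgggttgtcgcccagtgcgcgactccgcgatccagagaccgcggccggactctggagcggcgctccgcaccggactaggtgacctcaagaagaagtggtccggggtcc
Nkx2-1 (chr12:56536909-56537158, minus strand): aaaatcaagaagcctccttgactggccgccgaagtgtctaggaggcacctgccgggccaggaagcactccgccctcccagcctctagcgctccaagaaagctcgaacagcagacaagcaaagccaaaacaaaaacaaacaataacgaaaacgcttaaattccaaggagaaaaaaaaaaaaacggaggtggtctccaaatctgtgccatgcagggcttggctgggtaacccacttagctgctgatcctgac
Slc32a1 (chr2:158610508-158610757, plus strand): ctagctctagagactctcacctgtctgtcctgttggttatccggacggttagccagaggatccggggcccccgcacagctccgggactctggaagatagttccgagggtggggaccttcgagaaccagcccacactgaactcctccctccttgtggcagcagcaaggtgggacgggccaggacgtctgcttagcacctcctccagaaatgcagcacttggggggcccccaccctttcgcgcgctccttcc
Dlx6os1 (chr6:6869534-6869783, minus strand): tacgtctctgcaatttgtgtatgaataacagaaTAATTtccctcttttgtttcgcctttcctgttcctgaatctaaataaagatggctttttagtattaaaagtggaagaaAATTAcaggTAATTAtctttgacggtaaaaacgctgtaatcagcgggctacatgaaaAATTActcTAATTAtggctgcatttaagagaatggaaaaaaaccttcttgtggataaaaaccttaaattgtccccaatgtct
The Dlx1 window was 68.0% G and C with 22 CG dinucleotides, and the Dlx6os1 window 33.2% with 5. The medians over all promoters were 52.4% and 6, and over the 10 member promoters 59.8% and 13.5. The shares of promoters with a core were not adjusted for this. The Dlx1, Slc32a1 and Dlx6os1 windows lie inside the spans of these genes, so they also precede inner starts. The other Dlx6os1 window, which is not shown, holds 4 cores. A match is a description of the letters and does not show that a site is used.

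Among the LIM and NKX homeobox genes, Nkx2-1 and Lhx8 had the largest log2 fold changes of the 10 genes and the largest SEs. Nkx2-1 (gene ID 21869, chromosome 12 at 56531935 to 56536908), the selector of the medial ganglionic eminence, was at 871 in WT and 1173 in KI at E14.5. Its log2 fold change there was 0.43 per the authors' deposited table (SE 0.157, adjusted p = 0.173), which is 34.6% higher with a 95% interval of 8.75% to 66.6%. At E18.5 it was at 281 in WT and 333 in KI, a log2 fold change of 0.25 (SE 0.209, adjusted p = 0.9999) per the authors' deposited table. Lhx8 (gene ID 16875, chromosome 3 at 154306288 to 154330560), which is needed for ventral cholinergic neurons, was at 371 in WT and 482 in KI at E14.5. Its log2 fold change was 0.38 at E14.5 (SE 0.183, adjusted p = 0.394) and 0.31 at E18.5 (SE 0.307, adjusted p = 0.9999) per the authors' deposited table. Neither gene was called at either stage, and at E18.5 both intervals included 0.

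Their SEs were large beside those of genes with equal or higher counts. Dlx5 and Nkx2-1 had nearly equal mean normalized counts at E14.5 (1016 and 1022) but SEs of 0.0616 and 0.157 per the authors' deposited table. Of the 4742 genes tested at E14.5 with a mean at least as high as that of Nkx2-1, itself included, 9 had an SE as large. For Lhx8 the count was 11 of 8043 at E14.5, and at E18.5 it was 22 of 10088 for Lhx8 and 44 of 9345 for Nkx2-1. These sets reach up to the highest counts, so they are not limited to genes of similar count. By the same measure Dlx6 gave 124 of 9241 and Gad1 78 of 2971 at E14.5. If groups of 5 with equal depth are assumed, the SEs correspond to a coefficient of variation between libraries of about 17.2% for Nkx2-1 and 20.05% for Lhx8 at E14.5. At E18.5 the same figures were 23.0% and 33.7%. For the other 8 genes they lay between 5.02% and 12.2%. Lhx8 would have had to differ by 54.5% (E14.5) and 145% (E18.5) to be called.

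**Figure D2:**
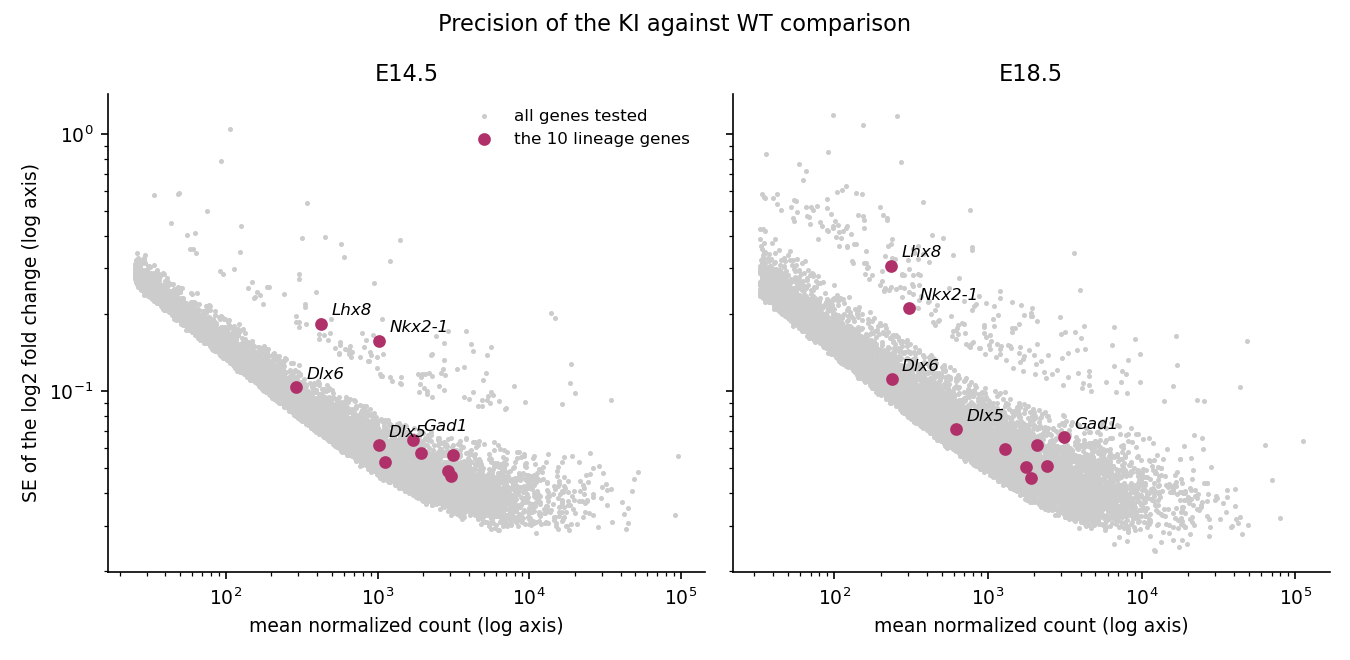
SE of the KI over WT log2 fold change against the mean normalized count (both log axes) for all genes tested (grey) and the 10 lineage genes (coloured) at each stage. Lhx8 and Nkx2-1 lie above the band of genes of similar count at both stages, while Dlx5, Dlx6 and Gad1 lie within or at the edge of it.

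Lhx6 (gene ID 16874, chromosome 2 at 36081950 to 36105992), the LIM factor of migrating cortical interneurons from the medial eminence, was measured with far less spread than its regulator Nkx2-1. It was at 1845 in WT and 2008 in KI at E14.5, and at 2001 and 2187 at E18.5. Its log2 fold changes were nearly equal, 0.12 (SE 0.0575, adjusted p = 0.369) and 0.13 (SE 0.0619, adjusted p = 0.805) per the authors' deposited table. Neither was called, although both intervals lay above 0, from 0.673% to 17.7% at E14.5 and from 0.444% to 18.9% at E18.5.

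The genes of GABA synthesis and vesicle loading, which mark differentiated GABAergic neurons, lay nearer 0 at E14.5 than at E18.5. Gad1 (gene ID 14415, chromosome 2 at 70561303 to 70602014) was at 1671 in WT and 1763 in KI at E14.5, and at 2973 and 3299 at E18.5. Gad2 (gene ID 14417, chromosome 2 at 22621015 to 22693877) was at 3040 and 3215 at E14.5, and at 2326 and 2530 at E18.5. Slc32a1 (gene ID 22348, chromosome 2 at 158607260 to 158615747) was at 1099 and 1140 at E14.5, and at 1664 and 1856 at E18.5. The KI mean was above the WT mean in each of these pairs. At E18.5 the differences amounted to 11.0% for Gad1, 8.76% for Gad2 and 11.6% for Slc32a1, and all 3 intervals excluded 0. In the authors' deposited table the log2 fold change of Slc32a1 at E18.5 was 0.16 (SE 0.0509, adjusted p = 0.352), and it was not called. With these SEs a gene at E18.5 had to differ by 16.0% (Slc32a1) to 21.3% (Gad1) to be called. Gad1os, whose span overlaps 2055 bases of that of Gad1, had a mean normalized count of 13.6 at E14.5 per the authors' deposited table and was not tested.

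The stages used different libraries, so their log2 fold changes could be compared and averaged. Subtracting the value at E14.5 from that at E18.5 gave a difference below 0 in 3 of the 4 Dlx genes and above 0 in Gad1, Gad2 and Slc32a1. For Dlx2 it was −0.15 (SE 0.0771, adjusted p = 0.999) and for Slc32a1 0.11 (SE 0.0734, adjusted p = 0.999). No member passed, and no gene of 13106 passed (0% called, with 593 at an unadjusted p under 0.05). A difference in timing between the Dlx and the GABA synthesis genes was not tested directly, and these values do not show it. The interval of the difference for Lhx6 ran from −0.16 to 0.17 and that for Nkx2-1 from −0.70 to 0.33.

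Averaged over both stages with weights from the SEs, Dlx1 rose by 0.12 on the log2 scale (SE 0.0327, adjusted p = 0.0202), 8.69% above WT (95% interval 3.97% to 13.6%). Of all genes, 1.1% were called higher in this mean. The call was lost under the Benjamini-Yekutieli adjustment (adjusted p = 0.203) and with the empirical null (adjusted p = 0.255). Lhx6 (0.12, SE 0.0421, adjusted p = 0.0980), Slc32a1 (0.11, SE 0.0367, adjusted p = 0.104) and Nkx2-1 (0.36, SE 0.126, adjusted p = 0.111) came next and did not pass. At an unadjusted p under 0.05, 8 of the 10 genes lay higher, beside 6.85% of all genes; the exceptions were Dlx5 (0.03, SE 0.0465) and Dlx6 (0.11, SE 0.0758). The 95% interval for Dlx5 in this mean ran from 4.29% lower to 8.60% higher.

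**Figure D3:**
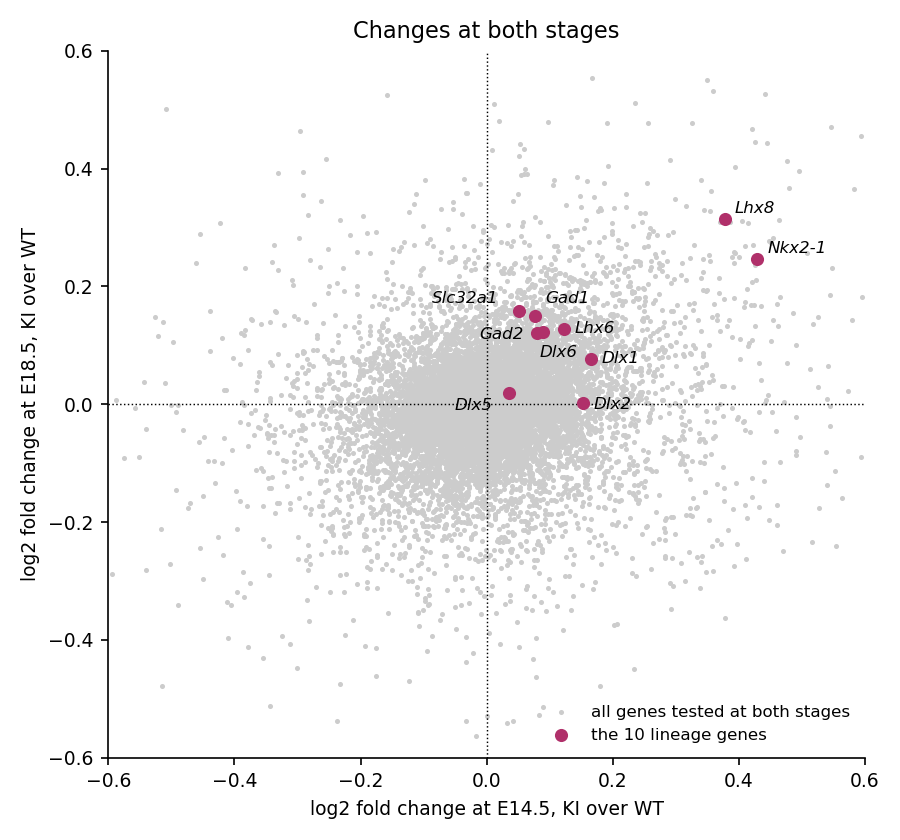
Log2 fold change of KI over WT at E14.5 (horizontal) against E18.5 (vertical) for the 13106 genes tested at both stages (grey) and the 10 lineage genes (coloured); 40 genes lie outside the axes. All 10 lie in the upper right part, with Lhx8 and Nkx2-1 far from the rest and Dlx2 next to the horizontal line at 0.

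The share of RNA from most of the 10 genes also differed between the stages. The tables were normalized separately, so the mean normalized counts were scaled to a sum of 1000000 over the 15415 genes that both list, and the values are given without a test. Nkx2-1 went from 54.6 at E14.5 to 15.1 at E18.5, Dlx2 from 155 to 63.4 and Dlx1 from 164 to 93.4. Dlx5 went from 54.3 to 30.7, Lhx8 from 22.8 to 11.5, Dlx6 from 15.6 to 11.6 and Gad2 from 167 to 119. Lhx6 was at 103 at both stages. Gad1 went from 91.8 to 154 and Slc32a1 from 59.9 to 86.6. Apart from Lhx6, the transcription factor genes were lower at the later stage, as was Gad2, while Gad1 and Slc32a1 were higher. These values pool both genotypes.

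Other genes of the pathway were read from lists chosen by general knowledge. Of 10 ventral patterning and progenitor genes tested at E14.5, all 10 lay above 0, with a median of 0.16, and none was called. The list includes Dlx1as and Dlx6os1, whose reads may not have been told apart from those of Dlx1 and Dlx6. Olig2, which marks ventral and oligodendrocyte progenitors, was at 0.23 at E14.5 (SE 0.0782, adjusted p = 0.126) and −0.19 at E18.5 (SE 0.0718, adjusted p = 0.598) per the authors' deposited table. At E18.5, 5 of 9 genes of this list lay above 0, Dlx1as and Dlx6os1 among them. The median was 0.07, which is the value of Dlx6os1.

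Among genes of GABA uptake and breakdown, 1 was called at E14.5 and in the mean over both stages, higher in KI. Abat, which degrades GABA, rose at E14.5 at 0.17 (SE 0.0415, adjusted p = 0.00768) and was at 0.06 (SE 0.0523, adjusted p = 0.9999) at E18.5 per the authors' deposited table. In the mean over both stages Abat rose by 0.13 (SE 0.0325, adjusted p = 0.00824). The calls of Abat at E14.5 and in the mean ended under the Benjamini-Yekutieli adjustment (adjusted p = 0.0774 and 0.0829) and with the empirical null (adjusted p = 0.138 and 0.157). The astrocytic transporter Slc6a11 was at −0.05 (SE 0.0918) and −0.09 (SE 0.0490) per the authors' deposited table. Of the 4 genes of this list tested at E14.5, 1 lay above 0, and the median was −0.01.

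Genes of interneuron specification and migration lay on both sides of 0 at E14.5, and markers of interneuron subtypes mostly below it. Of 12 specification and migration genes, 7 lay above 0 at each stage, with medians of 0.01 (E14.5) and 0.02 (E18.5). Zeb2, which represses Nkx2-1 in future cortical interneurons, was at −0.11 (SE 0.0363, adjusted p = 0.0878) and the chemokine receptor gene Ackr3 at 0.09 (SE 0.0645, adjusted p = 0.614) at E14.5 per the authors' deposited table. A link between the values of Zeb2 and Nkx2-1 was not tested. At E18.5 Maf was at 0.11 (SE 0.0657) and Ackr3 at 0.12 (SE 0.0745) per the authors' deposited table. Of 7 subtype markers tested, 1 (E14.5) and 3 (E18.5) lay above 0, with medians of −0.10 and −0.01. Npy was at −0.23 (SE 0.102) and Nos1 at −0.21 (SE 0.0896) at E14.5 per the authors' deposited table. Somatostatin (Sst) was at −0.12 at E14.5 (SE 0.0606) and 0.19 at E18.5 (SE 0.0695), and the serotonin receptor gene Htr3a at 0.22 (SE 0.101) at E18.5 per the authors' deposited table. None of the genes of these lists was called, and Vip and Pvalb were not listed at either stage.

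**Figure D4:**
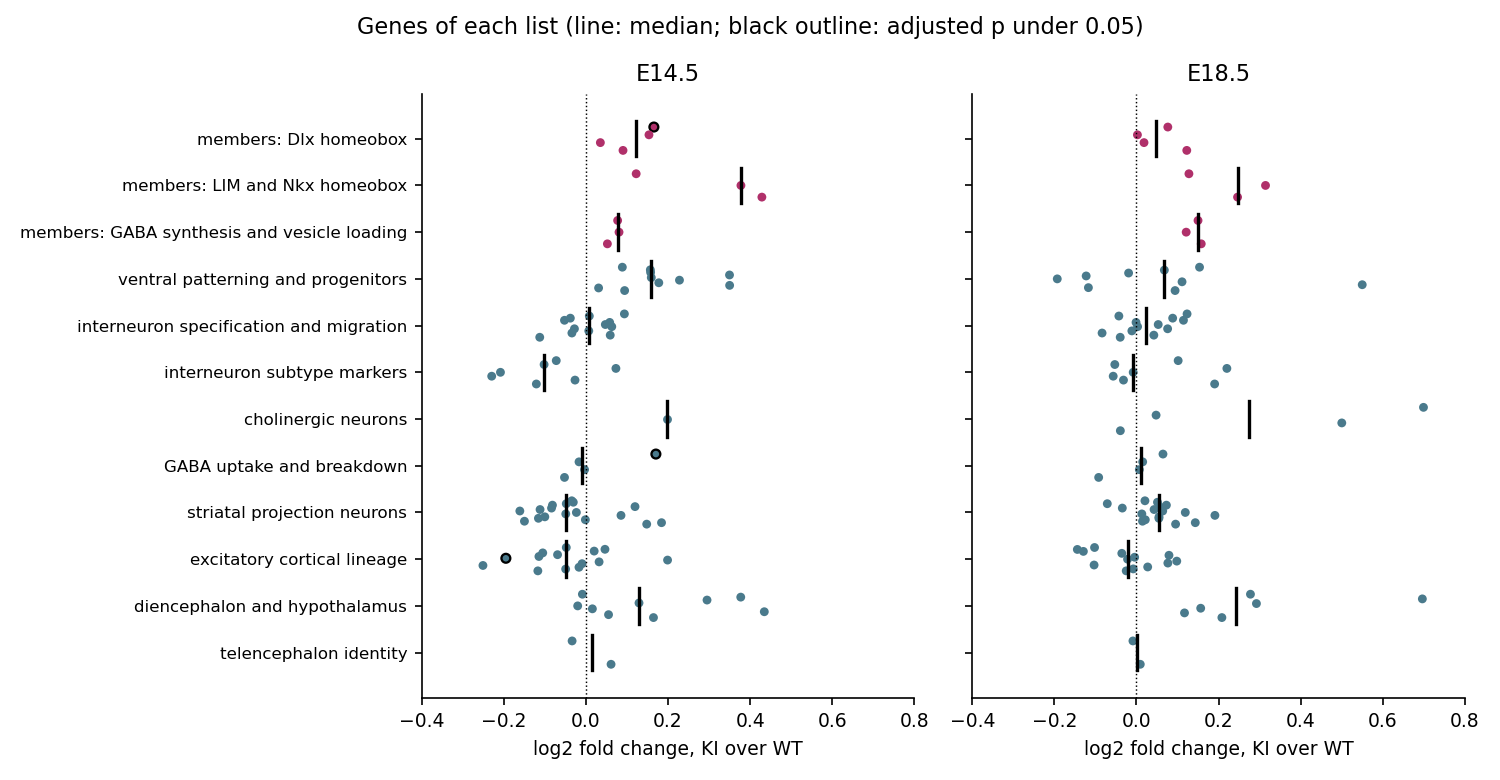
Log2 fold change of KI over WT at each stage for every tested gene of the members (upper 3 rows) and of the other lists (points), with the median of each list (line); black outlines mark Dlx1, Abat and Neurod6 at E14.5, the genes with an adjusted p under 0.05. The 2 highest points of the LIM and NKX row (Nkx2-1 and Lhx8) lie above the other members at both stages. At E14.5 the subtype, GABA uptake and breakdown, striatal and excitatory lists lie mostly below 0.

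Markers of other cells in the dissected tissue were read beside the members. Of 14 genes of the excitatory cortical lineage, 10 lay below 0 at E14.5 (median −0.05) and 9 of 13 at E18.5 (median −0.02). Neurod6, a factor of excitatory cortical neurons, fell at E14.5 at −0.20 (SE 0.0456, adjusted p = 0.00438), beside Neurod2 at −0.11 (SE 0.0429, adjusted p = 0.190) per the authors' deposited table. At E18.5 Emx2, a factor of cortical progenitors, was at −0.14 (SE 0.0837) and Neurod1 at 0.08 (SE 0.0514) per the authors' deposited table. Neurod6 was also called in the mean over both stages, at −0.13 (SE 0.0364, adjusted p = 0.0227). Lower calls made up 0.47% of the whole table at E14.5, and 0.839% in the mean. The Neurod6 calls ended with the empirical null (adjusted p = 0.104 at E14.5 and 0.277 in the mean), and that in the mean also under the Benjamini-Yekutieli adjustment (0.228) and with equal weights for the stages (0.129). Striatal projection neuron genes, which share the DLX programme, lay above 0 in 4 of 17 at E14.5 (median −0.05) and in 15 of 17 at E18.5 (median 0.05), with none called. Among them Foxp2 was at −0.11 (SE 0.0515) and Six3, which is also expressed in eminence progenitors, at 0.18 (SE 0.0704) at E14.5, and Penk at 0.19 (SE 0.0773) at E18.5 per the authors' deposited table.

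Diencephalic and hypothalamic genes lay above 0 in 7 of 9 tested at E14.5 (median 0.13) and in 6 of 6 at E18.5 (median 0.24). At E14.5 Lhx9 (−0.02) and Barhl2 (−0.01) lay below 0. Otp was at 0.02 (SE 0.234), Sim1 at 0.06 (SE 0.230) and Pomc at 0.43 (SE 0.292) there, per the authors' deposited table. Otp (−0.14), Sim1 (−0.43), Pomc (0.05) and Irx1 (0.08) were listed at E18.5 per the authors' deposited table but not tested, with SEs from 0.291 to 0.379. Gbx2, which is expressed in the thalamus and in the ventral telencephalon, was at 0.38 (SE 0.158, adjusted p = 0.273) and 0.70 (SE 0.224, adjusted p = 0.347) per the authors' deposited table. It rose in the mean over both stages, by 0.48 (SE 0.129, adjusted p = 0.0169), a call lost under the Benjamini-Yekutieli adjustment (adjusted p = 0.170) and with the empirical null (adjusted p = 0.230), and it was not tested with genes of a mean normalized count of at least 100. Lhx1 was at 0.29 at E14.5 (SE 0.119) and Barhl2 at 0.28 at E18.5 (SE 0.170) per the authors' deposited table. Mean normalized counts of the 13 genes of this list in the E14.5 table were at most 525 (Lhx9) per the authors' deposited table, and Rax, Hcrt and Shox2 were not listed. Of the cholinergic list, Gbx1 was at 0.20 at E14.5 (SE 0.168) and 0.70 at E18.5 (SE 0.244, adjusted p = 0.502), and the acetylcholine transporter gene Slc18a3 at 0.50 (SE 0.220, adjusted p = 0.770) at E18.5 per the authors' deposited table. Nkx2-1 and Lhx8 are also expressed in the ventral forebrain outside the cortical interneuron lineage, including the hypothalamus and preoptic area. The derived means of the diencephalic and hypothalamic genes summed to 1405 in WT and 1502 in KI at E14.5 (9 genes), and to 661 and 770 at E18.5 (6 genes). The part of uneven inclusion of such tissue in the values of Nkx2-1 and Lhx8 was not tested.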

How the data were processed

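RNA sequencing of forebrain was available as the authors' comparison of KI with WT at each stage. The submitters' processing notes name Trimmomatic 0.39, HISAT2 2.1.0, featureCounts 2.0.0, DESeq2 1.26.0 and the mm10 build. Per the file headers, the authors deposited per gene the mean of the normalized counts, the log2 fold change and its SE on the log2 scale, a score (the Wald statistic) and raw and adjusted p-values. The tables hold 0 columns of values per library, so total counts are unknown, and precision is given by the deposited SE (median 0.0684 at E14.5, 0.0727 at E18.5). Genes without a deposited adjusted p were left out of tests. The count model planned for tables per library could not be used, and the planned fallback on deposited values was.

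Symbols and coordinates come from RefSeq on GRCm38.p6, which matched 95.8% of IDs at E14.5 and 97.5% at E18.5. The stage difference and the inverse-variance weighted mean of the stages were tested with z statistics and Benjamini-Hochberg adjustment over 13106 genes (Python 3.11.15, scipy 1.17.1), a step tested on simulated data. Group means follow from the deposited mean and fold with equal groups. Named genes are the 10 members, Chd8 and, of each other list, genes called and the 2 with the lowest p at each stage; any other is given as a list marker, an overlapping partner or one picked after its values were seen. Members and lists were chosen with earlier results of these data known, and some genes of the lists are not reported here. Chromatin immunoprecipitation and ATAC libraries were not analysed here.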

Additional observations from a re-analysis of the deposited data

How the results depend on the processing

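The 5 alternative settings were Benjamini-Yekutieli adjustment, all genes with a p-value, a mean normalized count of at least 100, an empirical null, and centring on the median. The first 4 change p-values or the genes tested and cannot change a direction; with centring, all 10 genes were above 0 at both stages. The number of genes called at E14.5, 162, became 56 under Benjamini-Yekutieli and 31 with the empirical null, where 80.6% of calls were higher in KI in place of 61.1%. The 9 genes called at E18.5 became 4, 14 with the count minimum and 19 with the empirical null. The 254 called in the mean over stages became 89 and 60. Dlx1 was the member whose calls ended, at E14.5 and in the mean, under those 2 alternatives. Weighting both stages equally was added after seeing the data and kept the Dlx1 call. The mean over stages of Olig2, near 0, changed sign with centring (adjusted p = 0.999) and with equal weights (adjusted p = 0.947), and was called under neither.

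No paired analysis was possible because the deposited tables hold no column per library; for the same reason no replicate was left out, and whether 1 library decides a value was not examined. The depth per library is unknown, and with the SEs of Lhx8 and Nkx2-1 the smallest difference that would be called at E14.5 was 54.5% and 45.3%.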

Other observations

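Across the lists, the change between stages ran in different directions, with no gene called. The KI over WT log2 fold change at E18.5, less the one at E14.5, lay below 0 in 7 of 9 ventral patterning and progenitor genes (median −0.09) and above 0 in 6 of 7 interneuron subtype markers (median 0.17), in 13 of 17 striatal genes (median 0.08), in 10 of 13 excitatory cortical genes (median 0.07) and in 5 of 6 diencephalic and hypothalamic genes (median 0.09), beside 49.6% above 0 over all genes. Other lists had no such lean. The difference lay above 0 in 6 of 12 interneuron specification and migration genes (median −0.01). It did so in 2 of 4 GABA uptake and breakdown genes (median −0.01) and in 1 of 2 telencephalon markers. In the cholinergic list only Gbx1 was tested, at 0.50. Olig2 had the difference −0.42 (SE 0.106, adjusted p = 0.350) and Sst 0.31 (SE 0.0922, adjusted p = 0.689). Both are values chosen after they were seen.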
